A study of Homo sapiens with 12 samples.

Results

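L1M1 to L1M8 are the numbered subfamilies of the mammalian-wide L1 retrotransposons, and the RNA carried by their genomic copies was measured here in material pulled down with ZC3H18. An element was counted as a member where its reads lay on its own strand and its subfamily name began with L1M and a digit. These were 42994 elements in 24 subfamilies, of 1509971 elements of the LTR, LINE, SINE, DNA, RC and Retroposon classes listed on their own strand in any library. The assay was PAR-CLIP, in which living cells take up a photoactivatable thiouridine, light crosslinks RNA to protein, and the tagged protein is recovered together with bound transcripts. The cells were A375, a human melanoma line in long-term culture. They were transiently transfected with a V5-tagged construct and labelled 24 h later, and pull-down was through the V5 tag without selection of a protein size. The control construct was Clover, a fluorescent protein. The ZC3H18 constructs were Z18fl (the whole protein), Z18trunc (a truncated form) and Z18truncZnFmut (the truncated form with aromatic residues of its zinc finger mutated). Each construct had 3 libraries, 12 in all.

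All groups share 1 cell line, and the proteins were made from transfected plasmids rather than from the cell's own gene. Immunoprecipitation was in triplicate, and nothing says that the replicates were separate cultures, so p-values measure only the spread between these samples, which may be technical. The libraries used here hold pulled-down RNA only, so more binding to an element and more of its RNA in the cell cannot be told apart. The files list repeat elements and not genes, so the cell type could not be checked against markers. Aligned fragments ranged from 16683132 to 25686948 per library. The third Z18truncZnFmut library stood apart: it listed 28225 members against 2935 to 10297 in the other libraries, had 56.2% of reads over members on the element's strand against 63.0% to 77.8%, and held 38.0% of member counts between genes against 19.1% to 24.1%. The main results for Z18truncZnFmut are therefore given with and without it.

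L1 is the LINE family that copies itself through an RNA intermediate with its own reverse transcriptase. The L1M subfamilies stopped moving long ago, and their copies survive as worn, mostly truncated pieces in introns, between genes and, less often, in exons, where they are read as part of other transcripts. ZC3H18 is a zinc finger protein that links the cap-binding complex of nuclear RNA to the PAXT and NEXT complexes, which hand polyadenylated and short unstable nuclear RNA to the exosome for decay. Over the 63591 numbered elements listed on either strand, the median divergence from consensus was 24.6%. L1MA elements, the youngest of the L1M groups, were longer and less diverged (medians 592 bases and 15.7%), and L1ME elements, the oldest, were shorter and more diverged (335 bases and 26.1%). L1MC with L1MD lay between L1MA and the numbered elements in divergence (22.3%). The strand of the numbered elements had a median A content of 42.9%, against 40.2% in L1MA, 38.9% in L1MC with L1MD, 40.3% in L1ME and 30% over all elements of the 6 classes.

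The sequences of 4 members are shown, in hg38 and 5′ to 3′ on the strand of the element, with capitals marking runs of 8 or more A or T bases. The L1M4c elements in MALAT1 and HSP90AA1 held more L1M4c counts than any others, and the L1M4a2 and L1M4b elements were named by the rule on single loci. Counts for all of them are given further on.

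L1M4c, MALAT1 exon, chr11:65499662-65499925, plus strand: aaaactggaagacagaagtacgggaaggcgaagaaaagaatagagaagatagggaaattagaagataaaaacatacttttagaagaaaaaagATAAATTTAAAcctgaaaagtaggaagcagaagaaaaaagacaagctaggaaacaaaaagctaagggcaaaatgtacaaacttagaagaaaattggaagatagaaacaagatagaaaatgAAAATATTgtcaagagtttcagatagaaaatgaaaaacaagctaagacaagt

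L1M4c, HSP90AA1 exon, chr14:102083056-102083143, minus strand: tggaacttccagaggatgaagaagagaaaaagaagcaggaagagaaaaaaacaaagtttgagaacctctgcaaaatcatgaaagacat

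L1M4a2, CDK11B intron, chr1:1645682-1645829, minus strand: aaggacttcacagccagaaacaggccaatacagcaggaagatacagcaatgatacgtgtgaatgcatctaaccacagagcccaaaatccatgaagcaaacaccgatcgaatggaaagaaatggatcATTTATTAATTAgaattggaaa

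L1M4b, antisense to KCNG2, chr18:79898248-79898547 (the middle 300 bases of the element at chr18:79897994-79898800), minus strand: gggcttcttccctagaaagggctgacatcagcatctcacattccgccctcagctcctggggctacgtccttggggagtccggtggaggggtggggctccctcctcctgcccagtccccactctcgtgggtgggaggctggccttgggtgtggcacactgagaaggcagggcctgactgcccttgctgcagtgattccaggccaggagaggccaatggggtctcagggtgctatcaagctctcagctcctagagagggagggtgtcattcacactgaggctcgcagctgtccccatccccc

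The MALAT1 element is rich in A, with 54.5% A and 15.2% T, and holds 7.20% of its bases in such runs. The HSP90AA1 element has 50% A and 13.6% T and no run of that length. No such run lies in the 300 bases shown of the L1M4b element.

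The first question was whether RNA of these elements made up more of the repeat RNA recovered with ZC3H18 than with Clover. It did in every library of all 3 constructs. Members held 1.71%, 1.60% and 1.62% of element counts in the 3 Clover libraries. The values were 2.47%, 2.53% and 2.72% with Z18fl, and 2.61%, 2.62% and 2.66% with Z18trunc. With Z18truncZnFmut they were 2.18%, 2.17% and 2.92%. The group means were 1.64% ± 0.063, 2.57% ± 0.128, 2.63% ± 0.0277 and 2.42% ± 0.433 (SD, n = 3), and the last was 2.17% without the library that stood apart. No construct overlapped Clover, and the differences of 0.930, 0.990 and 0.781 percentage points each had the smallest p that 3 libraries against 3 allow (two-sided exact permutation test, p = 0.1; 0.176 after Benjamini-Hochberg adjustment over 60 such tests). Z18trunc overlapped Z18fl (exact p = 0.5), and Z18truncZnFmut overlapped Z18trunc (exact p = 0.4).

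Scaled to aligned fragments rather than to repeat counts, members took 616 to 718 CPM (counts scaled to the aligned fragments of the library) with Clover. The ranges were 1247 to 1497 with Z18fl and 1451 to 1550.3 with Z18trunc. Z18truncZnFmut gave 1159, 1118 and 2636. All construct libraries lay above all Clover libraries, and the highest value of the 12 belonged to the library that stood apart.

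**Figure D1:**
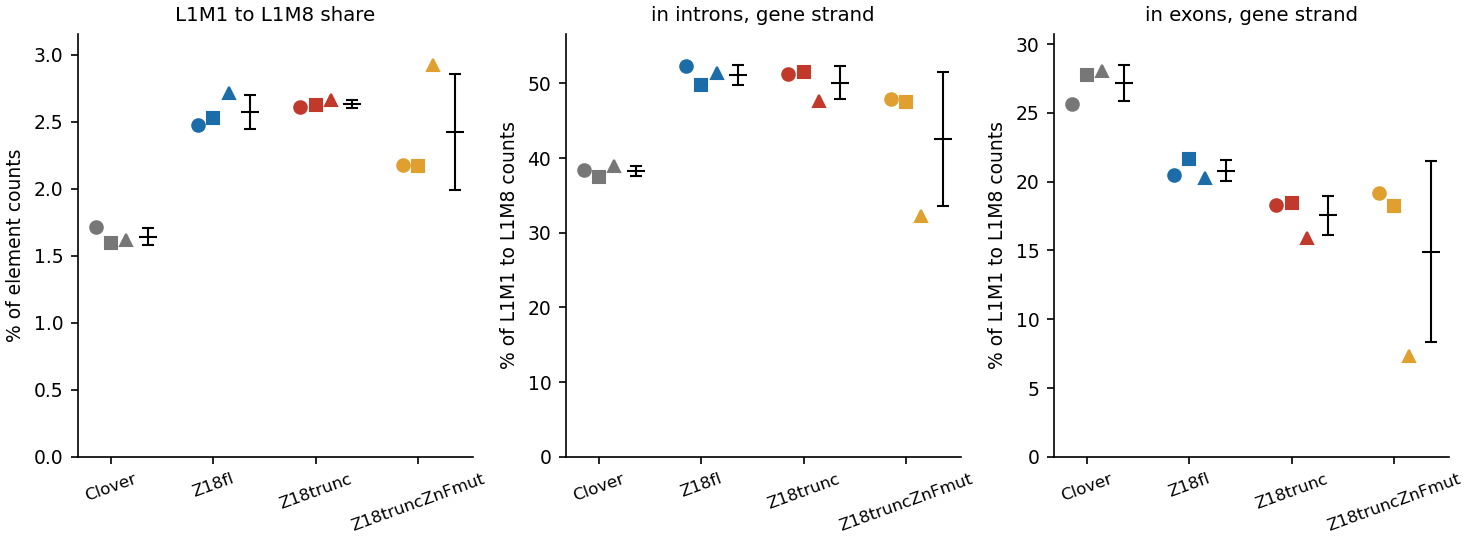
Each point is 1 of 12 libraries, with the marker giving the replicate number and the bar the group mean ± SD. The panels plot the share of element counts held by L1M1 to L1M8 elements (%), and the shares of their own counts in introns and in exons (%); all construct libraries lie above Clover in the first panel and below it in the third, and the third Z18truncZnFmut library is low for introns and exons.

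Where in the genome the member counts lay also differed from Clover. Introns on the gene's strand held 38.5%, 37.5% and 38.9% of member counts with Clover. They held 52.3%, 49.8% and 51.4% with Z18fl, and 51.3%, 51.5% and 47.6% with Z18trunc. With Z18truncZnFmut they held 48.0%, 47.5% and 32.2%, so 2 libraries were above Clover and the one that stood apart was below it. Neither Z18fl nor Z18trunc overlapped Clover (exact p = 0.1, adjusted 0.176), while Z18truncZnFmut did (exact p = 0.4).

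The share in exons was the other way round, at 27.2% on average with Clover against 20.8%, 17.6% and 14.9% with Z18fl, Z18trunc and Z18truncZnFmut, with no overlap with Clover (exact p = 0.1, adjusted 0.176). The last mean was 18.7% without the library that stood apart. In CPM the exon counts were not lower than with Clover. They ran from 171 to 184 with Clover, from 262 to 303 with Z18fl, from 247 to 276 with Z18trunc, and from 194 to 222 with Z18truncZnFmut. Intron counts ran from 231 to 276 CPM with Clover and from 621 to 769 with Z18fl. Both kinds of count were thus higher relative to aligned fragments, intron counts by more. Z18trunc had a lower exon share than Z18fl, by 3.23 percentage points without overlap (exact p = 0.1, adjusted 0.176).

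Reads over these elements also lay more often on the element's own strand. That share averaged 64.3% with Clover, 74.6% with Z18fl and 74.5% with Z18trunc, without overlap with Clover. Z18truncZnFmut averaged 67.0% and overlapped Clover, and its mean was 72.4% without the library that stood apart. The recovered copies were slightly less diverged than those with Clover (mean divergence weighted by counts 24.4% with Clover, 23.5% with Z18fl, 23.0% with Z18trunc, 23.3% with Z18truncZnFmut). They were also slightly richer in A (38.1%, 39.1%, 39.4% and 39.4%). Neither measure overlapped Clover for any construct (exact p = 0.1, adjusted 0.176). Without the library that stood apart the Z18truncZnFmut means were 23.4% divergence and 38.8% A, which brought its difference from Clover in A from 1.36 to 0.75 percentage points.

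Next, the numbered elements were set against the other L1M groups, since older and younger L1 copies share the same genes and introns. Relative to Clover they stood higher against L1MC with L1MD and, except with Z18truncZnFmut, against L1ME, and lower against L1MA. The log2 ratio of their counts to those of L1MA was 0.75, 0.82 and 0.87 with Clover. It was 0.58, 0.69 and 0.45 with Z18fl, and 0.25, 0.23 and 0.29 with Z18trunc. Z18truncZnFmut gave 0.33, 0.44 and 0.06. Every construct lay below Clover, by 0.24, 0.56 and 0.54 on the log2 scale, and Z18trunc lay below Z18fl by 0.32, all without overlap (exact p = 0.1, adjusted 0.176). Without the library that stood apart Z18truncZnFmut lay 0.43 below Clover.

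Against L1MC with L1MD the ratio was higher than with Clover, by 0.35 with Z18fl, 0.37 with Z18trunc and 0.20 with Z18truncZnFmut, again without overlap (0.28 without the library that stood apart). Against L1ME it was higher by 0.19 and 0.26 with Z18fl and Z18trunc without overlap, and by 0.04 with overlap for Z18truncZnFmut (exact p = 0.9). Without the library that stood apart the last difference was 0.18. The exact p was 0.1 (adjusted 0.176) in each comparison without overlap.

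**Figure D2:**
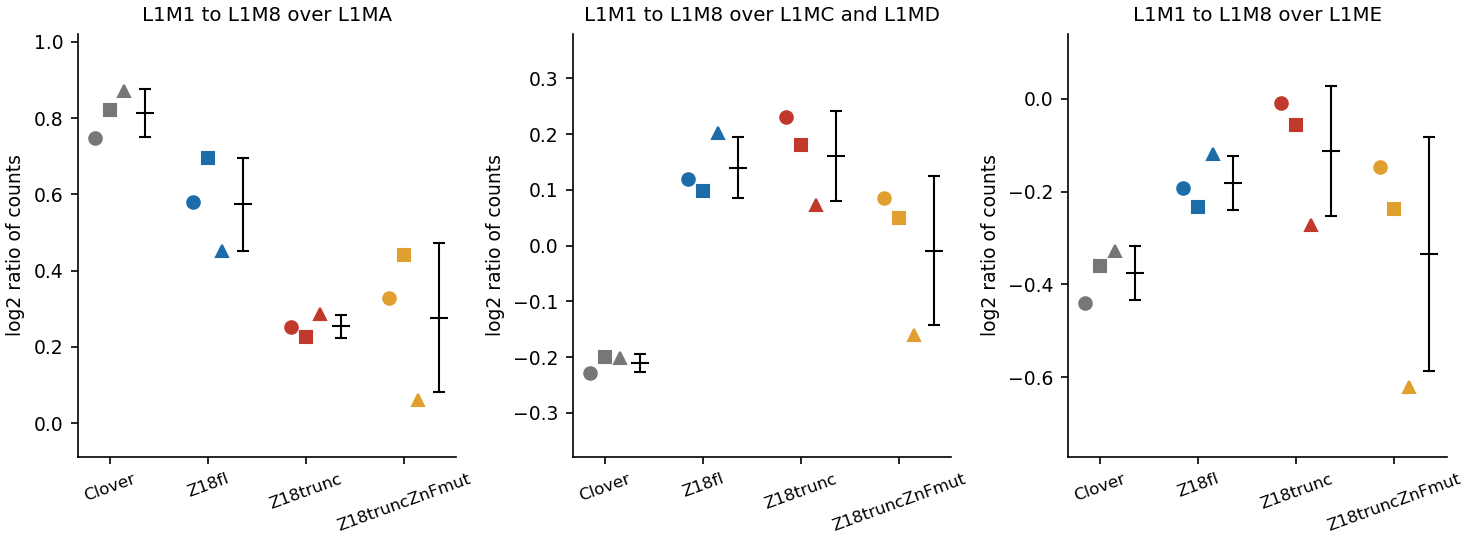
The log2 ratio of L1M1 to L1M8 counts to those of L1MA, of L1MC with L1MD, and of L1ME is plotted for each of 12 libraries (marker, replicate number; bar, group mean ± SD). All construct libraries lie below Clover for L1MA and above it for L1MC with L1MD.

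Each subfamily was then tested for its summed counts with edgeR's quasi-likelihood test, with Benjamini-Hochberg adjustment over all subfamilies and a call at an adjusted p under 0.05. All 24 numbered subfamilies passed the filter on low counts in every comparison. With Z18fl against Clover 21 rose and none fell, where 20.1% of all 914 subfamilies tested rose and 20.1% fell. With Z18trunc 20 rose and none fell, where 15.7% of 924 rose and 11.0% fell. With Z18truncZnFmut 3 rose (L1M1, L1M2 and L1M3c, each with adjusted p = 0.0464) and none fell, against 1.30% and 0 of 920. An unadjusted p under 0.05 was found for 16 of the 24 and for 171 of the 920. Without the library that stood apart, 18 rose with Z18truncZnFmut and none fell, where 11.0% and 5.82% of 894 did. Leaving out any one of the other libraries left 0 called, so the 3 calls for this construct rest on all of them. DESeq2 called 13 higher.

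The median log2 fold change over the 24 was 0.73, 0.93 and 0.60 for Z18fl, Z18trunc and Z18truncZnFmut, against -0.01, 0.01 and 0.03 over all subfamilies. These values are relative to the TMM scaling, which holds the typical repeat near 0. Scaled to aligned fragments, the median of all subfamilies moved up by 0.47, 0.47 and 1.01, and 23, 24 and 5 members rose. Over all subfamilies, calls with Z18fl then went from 184 higher and 184 lower to 493 and 38, and with Z18trunc from 145 and 102 to 420 and 9.

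**Figure D3:**
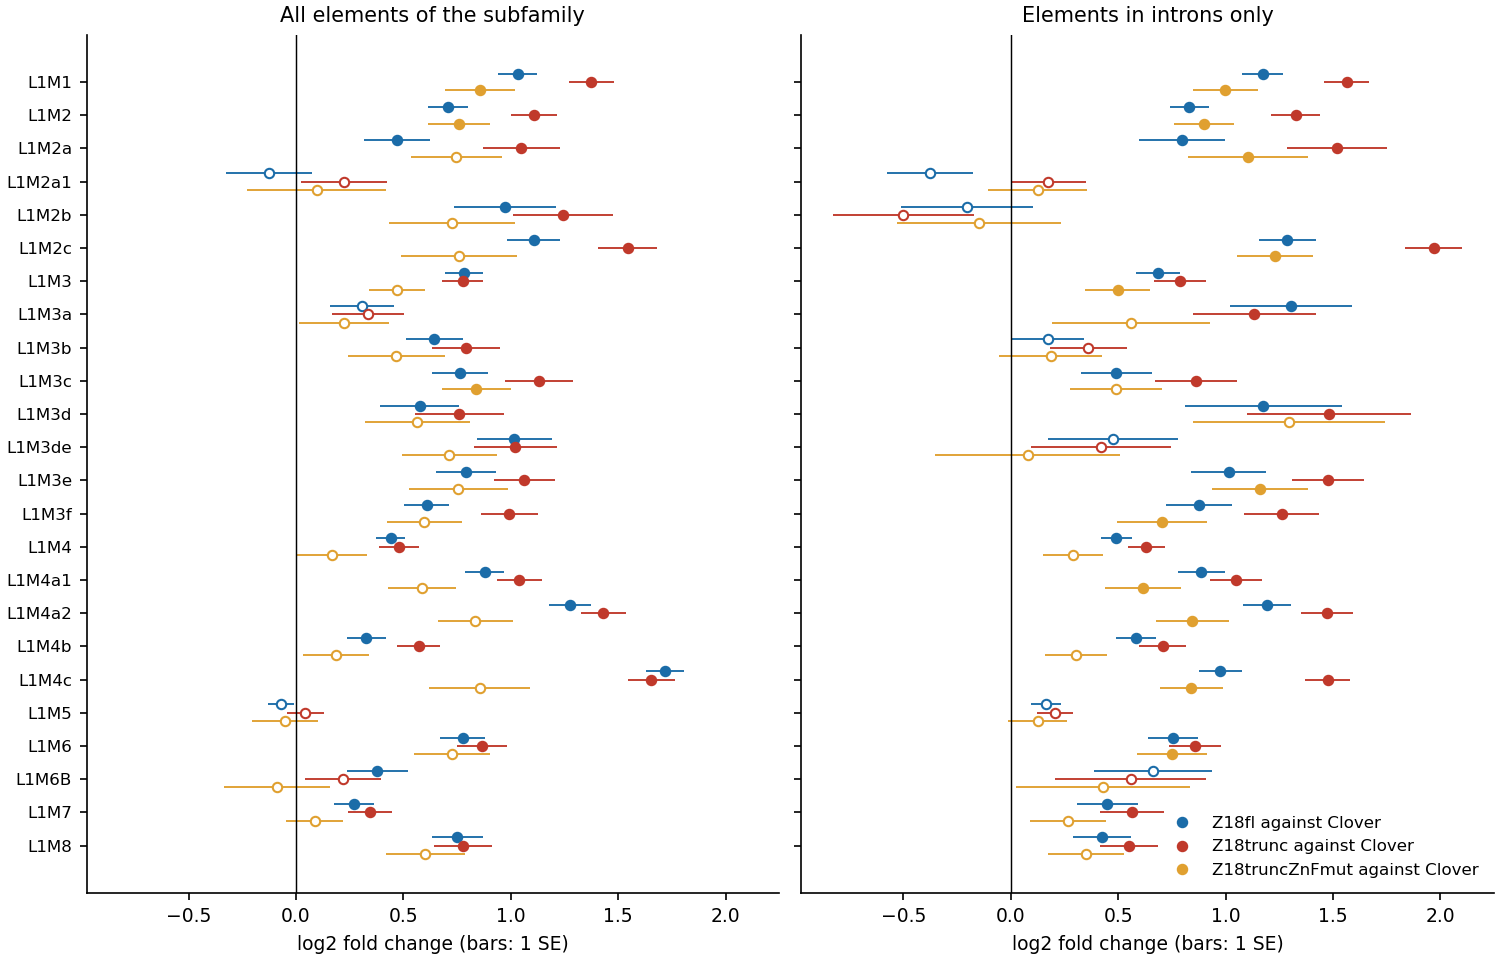
Log2 fold change of summed counts for each of 24 subfamilies in the 3 construct comparisons with Clover, with bars of 1 SE and filled points for an adjusted p under 0.05. The left panel sums all elements of a subfamily and the right panel those in introns; most points lie right of 0, and L1M5 lies near 0 in the left panel.

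Summed over all its elements, L1M4c rose more than any other numbered subfamily with Z18fl and with Z18trunc. Its counts were 34.9, 31.0 and 29.4 CPM with Clover, 140, 127 and 167 with Z18fl, and 136, 144 and 131 with Z18trunc. They were 90.3, 82.5 and 129 with Z18truncZnFmut. The log2 fold change was 1.72 ± 0.089 (SE, adjusted p = 2.88e-09) with Z18fl and 1.65 ± 0.11 (adjusted p = 7.47e-09) with Z18trunc. It was 0.86 ± 0.24 (adjusted p = 0.115) with Z18truncZnFmut, and 1.11 ± 0.10 and called without the library that stood apart. Its share of member counts was 4.77% to 5.04% with Clover, 10.2% to 11.1% with Z18fl and 8.44% to 9.63% with Z18trunc.

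L1M4c had a larger share of its counts in exons than any other numbered subfamily, 65.4%, with 20.8% in introns over all libraries. L1M6B was close to it (61.7% and 22.9%), and L1M3de also had more in exons than in introns (37.5% and 27.6%). Nearly all of the exon part of L1M4c came from the MALAT1 and HSP90AA1 elements printed above, which held 33.9% and 31.3% of L1M4c counts. The rise of L1M4c was therefore also computed without them, an alternative chosen after their values were seen. It was then 0.98 ± 0.095 with Z18fl, 1.34 ± 0.10 with Z18trunc and 0.91 ± 0.13 with Z18truncZnFmut, the last now called (adjusted p = 0.0139). L1M4c then no longer rose most. In the main test L1M4a2 and L1M2c rose by 1.28 and 1.11 with Z18fl, and by 1.43 and 1.54 with Z18trunc. The comparison of Z18trunc with Z18fl depended on these loci. For all L1M4c elements Z18trunc minus Z18fl was -0.12 ± 0.11 (adjusted p = 0.638), without both loci it was 0.31 (adjusted p = 0.0583), and over introns alone it was 0.42 (adjusted p = 0.00367). Without the MALAT1 element alone it was -0.43 ± 0.075, called lower (adjusted p = 0.00612).

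The MALAT1 element lies within the exon of a long noncoding RNA that stays in nuclear speckles. It had 87, 36 and 49 counts with Clover, 953, 721 and 1484 with Z18fl, 1435, 1634 and 1170 with Z18trunc, and 873, 666 and 698 with Z18truncZnFmut. All construct libraries lay far above all Clover libraries. The log2 fold changes against Clover were 3.32 ± 0.23 (adjusted p = 8.56e-09), 3.79 ± 0.20 (adjusted p = 2.56e-10) and 3.06 ± 0.22 (adjusted p = 9.91e-10). Z18trunc minus Z18fl was 0.38 ± 0.13 (adjusted p = 0.0943), and was called without the third Z18trunc (0.46, adjusted p = 0.0483) or the third Z18fl library (0.57, adjusted p = 0.00688). Z18truncZnFmut was lower than Z18trunc by edgeR (-0.71 ± 0.13, adjusted p = 0.0161), the only member locus called in that comparison. With the replicate number as a block the value was -0.70 and not called (adjusted p = 0.0594), and the call was also lost without the first (adjusted p = 0.129) or the second Z18trunc library (adjusted p = 0.131).

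The HSP90AA1 element is annotated on the coding exon of a cytosolic chaperone, so its reads are those of a messenger RNA. It had 248, 271 and 262 counts with Clover, 1469, 1465 and 1762 with Z18fl, 735, 757 and 775 with Z18trunc, and 509, 437 and 368 with Z18truncZnFmut. Z18fl stood above every other group and Z18trunc between Z18fl and Clover. It rose by 1.74 ± 0.11 with Z18fl (adjusted p = 4.64e-09) and by 0.71 ± 0.12 with Z18trunc (adjusted p = 0.000132). With Z18truncZnFmut the value was 0.11 ± 0.16 (adjusted p = 0.691). Z18trunc was lower than Z18fl by 1.12 ± 0.11 on the log2 scale (adjusted p = 2.45e-06). Z18truncZnFmut minus Z18trunc was -0.57 ± 0.15 (adjusted p = 0.0730) by edgeR and was called lower by DESeq2 (-0.56, adjusted p = 0.00741).

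These elements thus ranked the constructs differently. The ratio of MALAT1 to HSP90AA1 counts was 0.133 to 0.351 with Clover and 0.492 to 0.842 with Z18fl. It was 1.51 to 2.16 with Z18trunc and 1.52 to 1.90 with Z18truncZnFmut. The rest of L1M4c had 11.8 to 14.8 CPM with Clover, 32.1 to 40.4 with Z18fl and 44.6 to 48.7 with Z18trunc. Among these 3 groups Z18trunc was highest on average for the rest as for the MALAT1 element. With Z18truncZnFmut the rest had 33.2, 30.7 and 85.1 CPM, the last in the library that stood apart, and the MALAT1 element 36.1, 31.3 and 28.8. One intronic L1M4c copy, in TRRAP at chr7:99020488-99022081, had 4, 7 and 7 counts with Clover and 27, 24 and 32 with Z18fl. Its counts were 45, 48 and 34.5 with Z18trunc, and its log2 fold changes were 1.34 with Z18fl and 1.98 with Z18trunc. Having under 10 counts in every Clover library, it passed the filter on low counts through the construct libraries, which favours a rise.

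**Figure D4:**
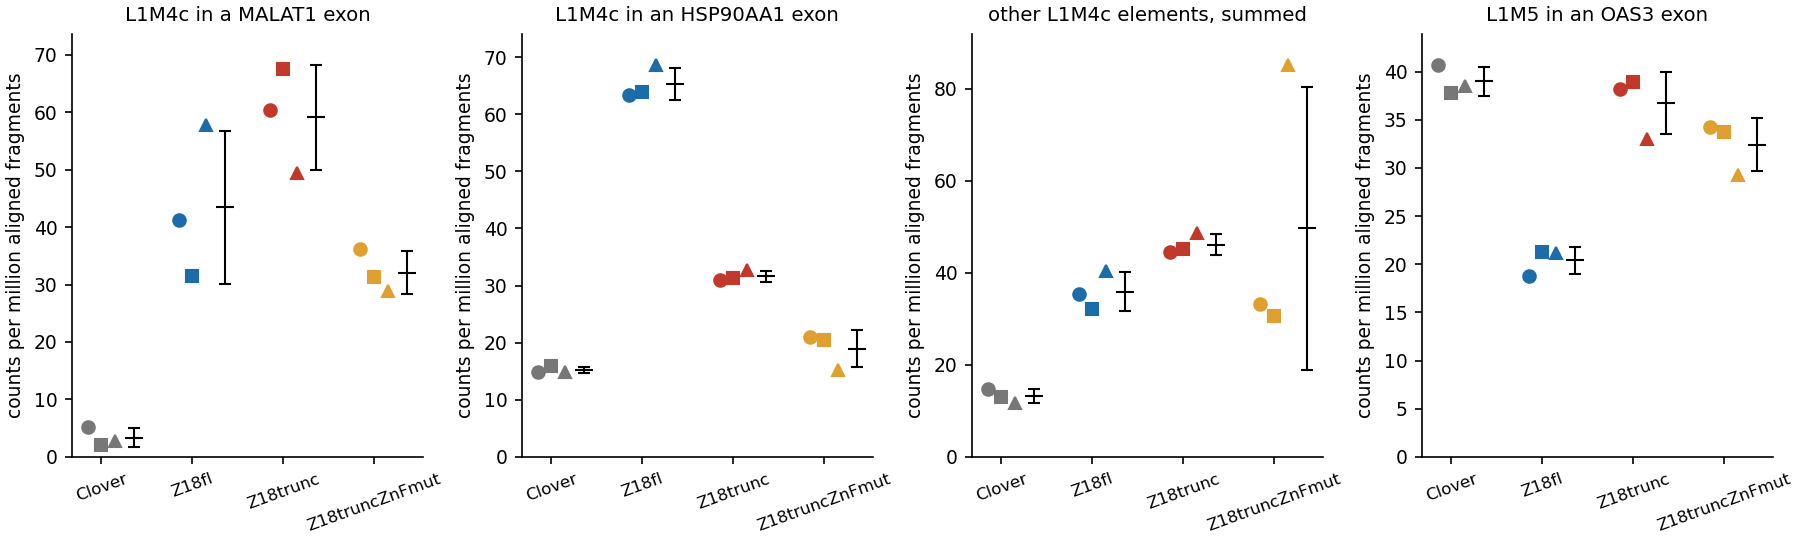
CPM, relative to aligned fragments, in each of 12 libraries (marker, replicate number; bar, group mean ± SD) for the L1M4c elements in MALAT1 and HSP90AA1, for all other L1M4c elements summed, and for the L1M5 element in OAS3. The MALAT1 element and the other L1M4c elements are highest with Z18trunc or in the third Z18truncZnFmut library, and the HSP90AA1 element is highest with Z18fl.

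L1M1, L1M2, L1M2a, L1M2b and L1M2c each rose by more than 1 on the log2 scale with Z18trunc, while L1M5 to L1M8 stayed under that. L1M1 held 17.5% of member counts, and its copies, the least diverged of the numbered subfamilies, had a median divergence of 16.3%. Its counts were 91.4, 76.7 and 77.7 CPM with Clover, 221, 200.3 and 274 with Z18fl, and 291, 297 and 286 with Z18trunc. Its log2 fold changes were 1.03 ± 0.091, 1.38 ± 0.10 and 0.86 ± 0.16 with Z18fl, Z18trunc and Z18truncZnFmut, called in all 3. L1M2c rose by 1.11 ± 0.12 and 1.54 ± 0.14 with Z18fl and Z18trunc, with 69.4% of its counts in introns. L1M2 rose by 0.71 ± 0.094, 1.11 ± 0.11 and 0.76 ± 0.14, L1M2b by 0.97 ± 0.24 and 1.24 ± 0.23 in the first 2 comparisons, and L1M2a by 0.47 ± 0.15 and 1.05 ± 0.18. L1M2a1 was the exception, at -0.12 (adjusted p = 0.667) and 0.22 (adjusted p = 0.502).

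Among the L1M3 subfamilies L1M3, L1M3b, L1M3c, L1M3d, L1M3de, L1M3e and L1M3f rose with both Z18fl and Z18trunc. In that order the log2 fold changes were 0.78, 0.64, 0.76, 0.58, 1.02, 0.79 and 0.61 with Z18fl, and 0.78, 0.79, 1.13, 0.76, 1.02, 1.06 and 0.99 with Z18trunc. L1M3a did not pass the test in either (0.31, adjusted p = 0.114; 0.34, adjusted p = 0.177). Among the L1M4 subfamilies all 5 rose with both constructs. L1M4a2 rose by 1.28 ± 0.098 and 1.43 ± 0.11, L1M4a1 by 0.88 and 1.04, L1M4b by 0.33 and 0.57, and L1M4 itself, with 17.4% of member counts, by 0.44 ± 0.068 and 0.48 ± 0.091.

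L1M5 held more counts than any other subfamily, 22.0% of member counts over 15103 elements listed on their own strand. The 23581 L1M5 elements listed on either strand had medians of 269 bases and 28.1% divergence. Under TMM scaling L1M5 did not pass the test in any comparison. Its counts were 224, 189 and 191 CPM with Clover, 256, 266 and 275 with Z18fl, and 259, 279 and 323 with Z18trunc. The log2 fold change was -0.07 ± 0.061 (adjusted p = 0.409) with Z18fl, 0.04 ± 0.088 (adjusted p = 0.778) with Z18trunc and -0.05 (adjusted p = 0.875) with Z18truncZnFmut. Scaled to aligned fragments, the value with Z18fl was 0.40 and called higher by edgeR (adjusted p = 0.0008). On that scale all 24 subfamilies, L1M5 among them, were called higher with Z18trunc. Both the direction and the call of L1M5 thus depend on the scaling. L1M6 and L1M8 rose by 0.78 and 0.75 with Z18fl and by 0.87 and 0.78 with Z18trunc. L1M7 rose by 0.27 and 0.35, and L1M6B by 0.38 with Z18fl only at the threshold (adjusted p = 0.0462), with 0.22 (adjusted p = 0.439) for Z18trunc. The smaller rises depended on single libraries. With Z18fl the calls of L1M2a, L1M3d, L1M6B and L1M7 were lost when 4, 3, 3 and 4 of the 6 libraries were left out in turn, with lowest values of 0.39, 0.40, 0.29 and 0.21. With Z18trunc the call of L1M7 was lost in 4 of the 6 cases (lowest 0.28), and that of L1M3d without the third Clover library (0.58, adjusted p = 0.0699).

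Between the constructs few subfamilies passed the test. With Z18trunc against Z18fl L1M2a rose (0.52 ± 0.13, adjusted p = 0.0419) and none fell, where 1.48% and 2.22% of 947 subfamilies did. L1M2a had 5.44, 6.45 and 6.27 CPM with Z18fl and 8.62, 9.67 and 8.64 with Z18trunc, without overlap. Its call was lost without any one library other than the third Z18trunc (0.44 to 0.58). Close to the threshold were L1M2c (0.38, adjusted p = 0.0865) and L1M3f (0.33, adjusted p = 0.0865). With Z18truncZnFmut against Z18trunc edgeR called 0 of 24 in either direction, as it did over all 956 subfamilies (0 and 0 percent), and DESeq2 also called 0. All 24 fold changes were below 0 under TMM scaling, from -0.74 for L1M4c to -0.03 for L1M5. An unadjusted p under 0.05 was found for 6 of the 24 and for 48 of all 956 subfamilies. The direction of the 24 depends on the scaling, since their median was -0.25 under TMM and 0.16 relative to aligned fragments.

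Because exons of a few abundant transcripts weigh on these sums, each subfamily was also summed over introns alone, a choice made after the values were seen. With Z18fl 18 members rose and none fell, where 18.6% and 15.6% of 763 subfamilies did. With Z18trunc 18 rose and none fell, against 16.1% and 9.06% of 762. With Z18truncZnFmut 11 rose and none fell, against 6.79% and 2.09% of 766. Leaving out the library that stood apart also gave 11 higher and 0 lower, against 10.3% and 4.08% of 710. In introns L1M1 rose by 1.17, 1.56 and 1.0 with the 3 constructs, L1M2c by 1.29, 1.97 and 1.23, and L1M4c by 0.98, 1.47 and 0.84. L1M5 had 0.16 (adjusted p = 0.0881), 0.21 (adjusted p = 0.084) and 0.13 there, and L1M2b, which rose in the sum over all elements, had -0.20 and -0.50 with Z18fl and Z18trunc and did not pass.

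With Z18trunc against Z18fl 5 subfamilies rose in introns and none fell, where 4.88% and 2.81% of 819 did. These were L1M1 (0.32, adjusted p = 0.0497), L1M2 (0.42, adjusted p = 0.0167), L1M2a (0.64, adjusted p = 0.0288), L1M2c (0.60, adjusted p = 0.00367) and L1M4c (0.42, adjusted p = 0.00367). With Z18truncZnFmut against Z18trunc edgeR called 0 in introns, with 0 percent of 823 called in either direction.

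Single elements were tested in the same way over all loci. Of the 42994 members, 19398 had at most 1 count over all libraries, and 577 passed the filter on low counts in at least 1 comparison and held 50% of member counts. With Z18fl against Clover 140 of 283 tested members rose and 21 fell, where 28.3% of all 12098 loci tested rose and 24.6% fell. With Z18trunc 174 of 332 rose and 11 fell, where 22.5% and 13.4% of 13204 did. With Z18truncZnFmut 55 of 201 rose and 6 fell, where 12.3% and 4.83% of 10152 did. Without the library that stood apart 50 of 195 rose and 3 fell, against 10.4% and 2.79% of 9894. Much of the difference from all loci was common to LINEs, of which 47.9%, 49.4% and 34.4% rose with the 3 constructs, against 49.5%, 52.4% and 27.4% of members. With Z18truncZnFmut the members' share thus lay under that of LINEs. L1MA rose in 66.4%, 73.7% and 57.6%, while L1MC with L1MD rose in 34.4%, 31.5% and 7.73% and L1ME in 37.6%, 32.5% and 9.24%.

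Many of these had too few counts with Clover and passed the filter through the construct's libraries, which favours a call. In the Z18fl comparison 102 had under 10 counts in every Clover library. Of them 81 rose (79.4%), where 73.3% of all such loci and 83.4% of such LINE loci did. Of the other 181, 59 rose, against 14.3% of all loci of that kind and 28.5% of LINE loci. The corresponding counts were 122 of 146 and 52 of 186 with Z18trunc (58.0% and 10.7% of all loci), and 25 of 35 and 30 of 166 with Z18truncZnFmut (50% and 7.96%). On the aligned-fragment scale the split of members was 173 higher and 10 lower with Z18fl, 206 and 4 with Z18trunc, and 69 and 0 with Z18truncZnFmut. Over all loci it went from 3424 and 2981 to 4349 and 1782 with Z18fl, from 2969 and 1773 to 3701 and 504 with Z18trunc, and from 1245 and 490 to 1488 and 116 with Z18truncZnFmut.

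Intronic members rose more often than exonic ones. With Z18fl 101 of 158 tested in introns rose and 2 fell, where 41.8% of all intronic loci rose and 12.8% fell. In exons 11 of 51 rose and 11 fell, where 11.5% and 42.4% did. Z18trunc had 127 higher and 1 lower of 188 in introns (35.4% and 6.01% of all intronic loci), and 7 and 6 of 53 in exons (4.08% and 26.6%). Z18truncZnFmut had 40 and 0 of 95 in introns (21.3% and 1.76%), and 2 and 4 of 43 in exons (0.914% and 10.7%). Between genes 20 of 46 rose with Z18fl and 27 of 60 with Z18trunc (28.1% and 23.5% of all such loci). Set against LINE loci rather than all loci, the shares were close: in introns 62.0% of LINE loci rose with Z18fl, 64.5% with Z18trunc and 48.0% with Z18truncZnFmut, against 63.9%, 67.6% and 42.1% of members, and L1MA loci rose in larger shares than members (72.9%, 82.6% and 67.8%). Without the library that stood apart 34 of 91 members (37.4%) rose in introns with Z18truncZnFmut, where 18.5% of all intronic loci and 41.3% of intronic LINE loci did.

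**Figure D5:**
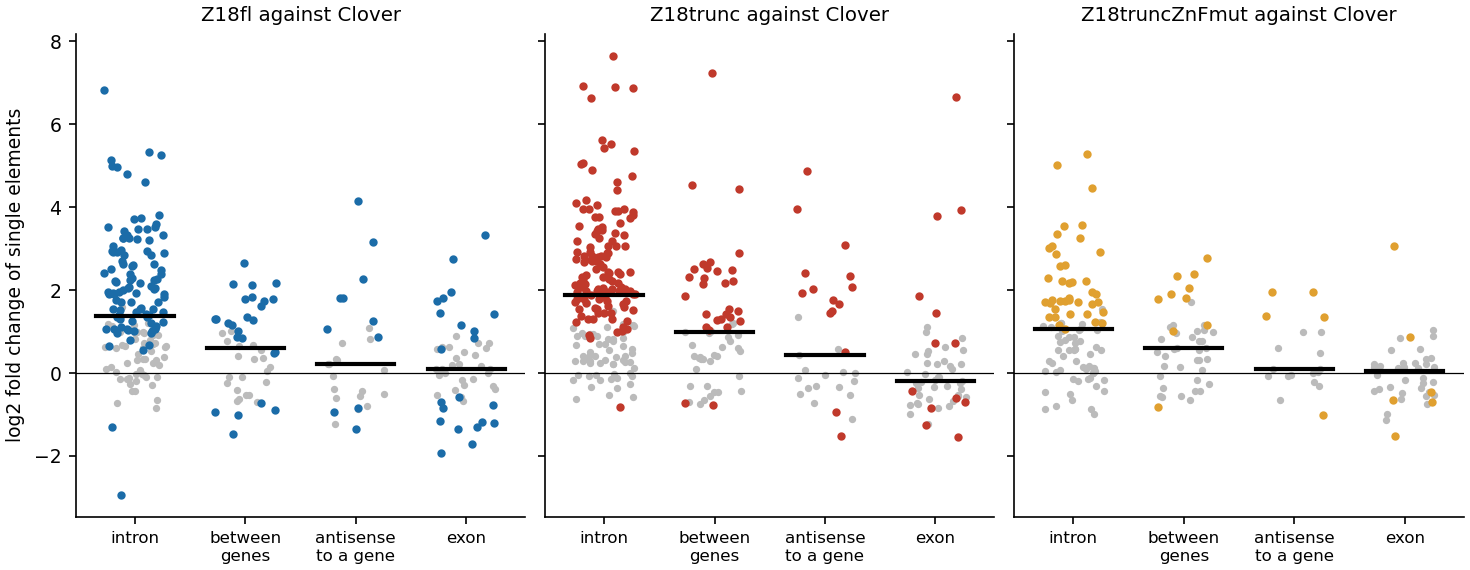
Each point is the log2 fold change of 1 tested L1M1 to L1M8 element against Clover, by position relative to genes (line, median; colour, adjusted p under 0.05; grey, not called). Some of the largest values have 0 counts in Clover and depend on the prior count; points in introns lie mostly above 0 and those in exons on both sides of it.

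Within introns the counts by subfamily number were as follows, with no test between the numbers, whose elements also differ in length (medians of 991 bases for L1M1 and 269 for L1M5). With Z18trunc 46 of 53 L1M1 loci rose, 27 of 37 of L1M2, 10 of 16 of L1M3 and 38 of 63 of L1M4, and 2 of 14 of L1M5. With Z18fl the counts were 31 of 40, 12 of 22, 13 of 18, 34 of 52 and 5 of 18. Z18truncZnFmut gave 18 of 31, 9 of 18, 5 of 11, 8 of 23 and 0 of 10. Of all intronic loci, 35.4% rose with Z18trunc, 41.8% with Z18fl and 21.3% with Z18truncZnFmut. In the same order the shares were 64.5%, 62.0% and 48.0% of intronic LINE loci and 82.6%, 72.9% and 67.8% of intronic L1MA loci.

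The largest intronic member by counts was an L1M2c copy of 3042 bases in TPTE, chr21:10547180-10550221 on the plus strand. It had 21.2, 16 and 35.9 counts with Clover, 182, 182 and 266 with Z18fl, 313, 341 and 266 with Z18trunc, and 188, 142 and 206 with Z18truncZnFmut. No construct library came near the Clover range. Its log2 fold changes were 2.25, 2.83 and 2.23, and Z18trunc was above Z18fl by 0.48 (adjusted p = 0.0441). An L1M1 copy of 4836 bases and 13.0% divergence in ARHGEF7, a guanine nucleotide exchange factor gene, chr13:111257502-111262337, rose by 3.24 with Z18fl and 2.87 with Z18truncZnFmut. Intronic member counts were spread over 5926 host genes, and the 10 with most counts held 10.5% of them.

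By the rule for naming loci, which asks for a mean score (the percent of reads aligning to the element that were assigned to it) of at least 90 in the higher group, 3 further members were named, all of which rose. Their scores there were 91.5 (L1M4b), 91.7 (L1M1) and 91.5 (L1M4a2), and over all libraries 85.1, 82.7 and 83.4. The elements in MALAT1, HSP90AA1 and OAS3 were named for holding most counts, without a limit on the score. Over all libraries their scores were 73.6, 82.2 and 81.7. No member that fell and none in the comparisons between constructs met it. The L1M4b element antisense to KCNG2, a potassium channel subunit gene, had 2, 0 and 3 counts with Clover and 20, 30 and 35 with Z18fl. It had 29, 16 and 33 with Z18trunc and 20, 7 and 17 with Z18truncZnFmut. It rose by 3.17 ± 0.60 (adjusted p = 0.000288) with Z18fl and 3.08 ± 0.65 (adjusted p = 0.000945) with Z18trunc, with all construct libraries above all Clover libraries. Having under 10 counts in every Clover library, it passed the filter through the construct libraries, which favours a call. Of all such loci tested, 73.3% rose with Z18fl and 58.0% with Z18trunc.

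The L1M4a2 element in an intron of CDK11B, a cyclin-dependent kinase gene, had 8, 0 and 5 counts with Clover and 23.5, 34 and 51 with Z18fl. It had 33, 48 and 35 with Z18trunc and 36, 20 and 24 with Z18truncZnFmut. It rose by 2.19 ± 0.53 (adjusted p = 0.00211), 2.31 ± 0.51 (adjusted p = 0.00154) and 1.94 ± 0.57 (adjusted p = 0.0188), and the last call was lost without the second (1.34, adjusted p = 0.0842) or the third Clover library (2.0, adjusted p = 0.0688). This element, too, had under 10 counts in every Clover library and passed the filter through the construct libraries, which favours a call. CDK11B has a near-identical neighbour, CDK11A, so the assignment of its reads is uncertain. An L1M1 element between genes at chr2:78446200-78447548 had 10, 11 and 5 counts with Clover and 37, 29 and 40 with Z18fl. It rose by 1.17 ± 0.36 (adjusted p = 0.0117), a call lost without the third Clover library (0.82, adjusted p = 0.0908). It was not called with Z18trunc (0.77, adjusted p = 0.147) or Z18truncZnFmut (1.04, adjusted p = 0.151).

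Members in exons moved both ways, and the examples here were chosen after their values were seen. The L1M5 element in an untranslated exon of OAS3, chr12:112972406-112972674, an interferon-induced oligoadenylate synthetase gene, held 10.8% of all L1M5 counts. It had 679, 646 and 681 counts with Clover, 435, 488 and 544 with Z18fl, 909, 941 and 782 with Z18trunc, and 828, 717 and 709 with Z18truncZnFmut. It fell by 1.30 ± 0.12 (adjusted p = 1.08e-07) with Z18fl, by 0.44 ± 0.11 (adjusted p = 0.00334) with Z18trunc and by 0.47 ± 0.14 (adjusted p = 0.0244) with Z18truncZnFmut. Scaled to aligned fragments only the first was called (-0.93), with -0.09 (adjusted p = 0.636) and -0.27 (adjusted p = 0.312) for the others. The Z18truncZnFmut call was also lost with uniquely mapping reads (-0.37, adjusted p = 0.0676) and without the first or the third Z18truncZnFmut or the first Clover library (-0.51 to -0.35). Z18trunc was above Z18fl by 0.76 ± 0.12 (adjusted p = 0.000463), the opposite order to the HSP90AA1 element.

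With Z18fl the other exonic members that fell included 3 L1M5 elements of MAN2A2, a Golgi mannosidase gene (-1.92, -1.72 and -1.34), and single elements in PLD5P1 (-1.20), RPL28 (-1.15), MAPK6 (-0.84), PCID2 (-0.76), ZNF182 (-0.71) and ZNF146 (-0.57). The MAN2A2 elements lie in 1 transcript and are not independent. Those that rose beside MALAT1 and HSP90AA1 included elements in PKD1 (2.75), OTUD6B-AS1 (1.45), WAC-AS1 (1.42) and JPX (1.02), of which the last 3 are noncoding RNAs.

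With Z18trunc against Z18fl 21 of 557 tested members rose and 19 fell, where 2.62% and 3.13% of 19413 loci did, shares near those of the members. Exonic members that were lower with Z18trunc were those of PKD1 (-1.35), WAC-AS1 (-1.34), ANKS3 (-1.21), HSP90AA1 (-1.12), the gene with identifier ENSG00000289161 (-0.78) and PKD1P6 (-0.49). PKD1 and PKD1P6 are near-identical copies, so the split of their reads is uncertain. With Z18truncZnFmut against Z18trunc 0 of 461 rose and 1, the MALAT1 element, fell, where 0.368% and 0.351% of 16833 loci did.

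Lastly, features the rule did not use were set beside the fold changes. Among tested members, longer ones rose more often. With Z18fl 26.3% of tested members of 76 to 589 bases rose, 55.3% of those of 590 to 1430 bases and 67.0% of those of 1431 to 6844 bases. Over all loci in the same length bins 16.3%, 37.4% and 53.8% rose, so length went with calls in other repeats too. With Z18trunc the bins were 76 to 664, 669 to 1500 and 1512 to 6844 bases. The members' shares there were 20.5%, 59.6% and 77.5%, against 7.56%, 35.7% and 54.3% of all loci. For Z18truncZnFmut, in bins of 76 to 584, 589 to 1495 and 1497 to 6844 bases, 4.48%, 28.4% and 49.3% of members rose. Among all loci in those bins 1.56%, 12.8% and 41.3% did. Across tested members Spearman's rho of length with fold change was 0.40, 0.51 and 0.65 for Z18fl, Z18trunc and Z18truncZnFmut, and of divergence -0.26, -0.38 and -0.41. These shares and correlations are descriptions across loci that share libraries. They include members with under 10 counts in every Clover library, which passed the filter through the construct's libraries, and this favours a call. Such members were 102 of 283 with Z18fl, 146 of 332 with Z18trunc and 35 of 201 with Z18truncZnFmut. The share of bases in runs of 8 or more A or T bases had a median of 6.17% in the members that rose with Z18fl, 6.01% in those not called and 3.72% in the 21 that fell. With Z18trunc the medians were 7.08%, 5.02% and 3.57%, the last over 11 members. Over all loci tested in the same comparisons they were 5.03% and 5.25%. L1MA loci had 8.31% and 8.49% and L1ME loci 6.15% and 7.23%, so the level in members that rose was not particular to them.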

How the data were processed

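RNA recovered by PAR-CLIP from A375 cells was measured in 12 libraries, 3 for each of 4 constructs, grouped by their titles. The authors trimmed reads (cutadapt 4.6 in the submitters' processing notes) and ran SQuIRE, which assigns reads to single annotated repeats of hg38 by strand, with a file for every library and no pooling. The version of SQuIRE is not given in the sources used here. Uniquely mapping reads were deposited as counts. The deposited totals hold expected counts, since a share of each multimapping read is added by expectation maximization, and the authors repeat the library's count of aligned fragments in every row. Divergence from consensus was read from the deposited element names, and the authors' score, a percent, sets the total against all reads that align there at all. The deposited FPKM values were not used.

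Expected counts on the element's strand were rounded to whole numbers per locus, or summed per subfamily and then rounded, over the 6 classes. edgeR 4.0.16 (R 4.3.3) was run with TMM scaling, filterByExpr (minimum count 10, minimum total 15) and the quasi-likelihood test on the 6 libraries compared, with Benjamini-Hochberg adjustment over all features tested and calls under 0.05. Standard errors were taken from the fold change and its F statistic. Values given once per library were tested by exact permutation, two-sided, which reaches p = 0.1 at the least with 3 libraries against 3. The edgeR test was checked on simulated counts with the same spread in every library. No simulated library stood apart, so the check does not cover comparisons that hold the third Z18truncZnFmut library. CPM is relative to aligned fragments. Context came from GENCODE release 44: an element was exonic if exons of its strand covered at least 50% of it, intronic if its middle lay elsewhere in a gene on that strand, and otherwise antisense to a gene or between genes. Python 3.11.15, numpy 2.4.6, pandas 2.3.3, scipy 1.17.1, pysam 0.24.0 and matplotlib 3.10.9 did the rest.

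Every subfamily was named. Single loci were named if called, if the libraries of the higher group averaged a score of 90 or more and at least 20 counts, and if the groups did not overlap. For each construct against Clover the 3 that rose and 2 that fell most were taken, and for the other comparisons 1 each way. The 3 members holding most counts were named too, without these limits. The members, lists and rules were chosen with earlier results of these data known. Replicate numbers come from the titles. Deviations from group means of same-numbered libraries correlated at 0.41, 0.16 and 0.61 between Z18truncZnFmut and Z18trunc, so these numbers were taken to pair the libraries, but not in the other comparisons. Libraries 1 and 2 also correlated across numbers (0.25 and 0.26), so the pairing rests mainly on the third libraries. Alternatives tried were DESeq2 1.42.0, aligned-fragment scaling, no filter, uniquely mapping reads, reads of either strand, a fit of all 12 libraries, the replicate block, mean scores over all libraries of at least 90, and leaving out each library or the top loci.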

Additional observations from a re-analysis of the deposited data

Results flagged for a closer look

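Reads on the strand opposite to the L1M1 to L1M8 elements enter none of the comparisons above, and their level in each construct lay above that in Clover. With Clover they amounted to 401, 363 and 320 CPM (relative to aligned fragments), 361 on average. The mean was 455 with Z18fl (451, 456 and 459), with all 3 libraries above Clover. It was 520.0 with Z18trunc (415, 466 and 679) and 975 with Z18truncZnFmut (401, 468 and 2055). The last mean rests on the third Z18truncZnFmut library, and without it the other two libraries gave the first and second of these values, the lower of them level with the highest Clover library. Counts over all elements of the 6 classes, on either strand, rose too. They averaged 6.54% of aligned fragments with Clover, 8.43% with Z18fl and 9.10% with Z18trunc, and were 8.37%, 8.44% and 16.3% in the Z18truncZnFmut libraries. The share of them on the element's own strand was 60.5%, 61.7% and 62.6%, and 63.6%, 61.0% and 55.4%. Higher antisense reads were thus not particular to these elements. The cause of the higher antisense level was not tested.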

How the results depend on the processing

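Counts of members called higher among subfamilies ran from 17 to 23 with Z18fl and from 18 to 24 with Z18trunc over the settings other than leaving out a library, and from 18 to 20 and 18 to 21 when 1 library was left out. The cause was not tested for any change listed here. With reads of either strand L1M2a turned to -0.98 with Z18fl and -0.56 with Z18trunc, and 1 subfamily was called lower in each. Over introns L1M2b turned to -0.20 with Z18fl and -0.50 with Z18trunc, and L1M4c turned to 0.42 for Z18trunc against Z18fl. Scaled to aligned fragments L1M5 turned to 0.40 with Z18fl.

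For Z18truncZnFmut against Clover the number of subfamilies called higher was 13 with DESeq2 and with all 12 libraries in the fit, 5 with aligned fragments or without both large L1M4c loci, 11 over introns, and 0 with no filter, with uniquely mapping reads or with the replicate block (0 to 18 leaving out a library). For Z18trunc against Z18fl it was 3 with DESeq2 and with either strand, 5 over introns, and 0 with uniquely mapping reads, with all 12 libraries or with the block (0 to 6 leaving out a library), and 1 was called lower without the largest locus.

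Loci called higher with Z18fl were 244 with no filter, 242 with all 12 libraries and 0 at mean scores over all libraries of at least 90, and those lower were 11 with DESeq2, 10 with aligned fragments, 10 with no filter, 32 with either strand and 0 at that score (12 to 27 leaving out a library). With Z18trunc higher calls were 311 with no filter, 114 with uniquely mapping reads and 2 at that score, and lower calls were 4 with aligned fragments, 1 with no filter, 23 with all 12 libraries and 0 at that score (6 to 15). With Z18truncZnFmut higher calls were 84 with no filter, 157 with all 12 libraries and 0 at that score, and lower calls were 0 with aligned fragments, 0 with no filter, 2 with uniquely mapping reads, 15 with all 12 libraries and 0 at that score (2 to 5). Few members reached that score, so fewer were tested there.

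For Z18trunc against Z18fl, loci called higher were 8 with DESeq2, 4 with no filter, 5 with all 12 libraries, 11 with the block and 0 at that score (3 to 23 leaving out a library), and those lower were 11, 12 with aligned fragments, 12 with no filter, 9, 12 with the block and 0 (10 to 20). For Z18truncZnFmut against Z18trunc, higher calls were 1 with uniquely mapping reads and 1 with either strand (0 to 2), and lower calls were 5 with DESeq2, 8 with aligned fragments, 0 with no filter, 5 with uniquely mapping reads, 2 with all 12 libraries, 0 with the block and 0 at that score (0 to 3). For these last libraries the numbers were taken to pair them, which rests mainly on the third libraries, and the main tests did not use this pairing. In the other comparisons, where same-numbered libraries did not vary together, the block gave 130 higher and 19 lower loci with Z18fl, and 161 and 10 with Z18trunc.

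The log2 ratio of the share of element counts was 0.65, 0.68 and 0.55 with Z18fl, Z18trunc and Z18truncZnFmut. It was 0.46 and 0.52 with either strand for the first and second, 0.57 and 0.63 without both large L1M4c loci, and 1.04, 1.21 and 1.22 relative to aligned fragments, and 0.16 rather than 0.03 for Z18trunc against Z18fl. With either strand the ratio to L1MC with L1MD differed by 0.27 with Z18fl, and the ratio to L1MA by -0.40 with Z18trunc. Leaving out the 2 L1M4c loci and summing over introns were chosen after seeing the data. Uniquely mapping reads made up 67.8% to 76.1% of member counts, and most members have too few counts for a test of the single element.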
